A study of Mus musculus with 3 samples.

Results

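The TNF receptor superfamily was examined in sorted mouse CD8+ T cells through 10 of its genes: Cd27, Tnfrsf4, Tnfrsf9, Tnfrsf18, Tnfrsf14, Tnfrsf1a, Tnfrsf1b, Fas, Tnfrsf10b and Tnfrsf26. They were read through every probe set of the array whose annotation names exactly 1 gene and that gene is one of the 10. This gave 13 probe sets for 9 of the 10 genes, out of 34945 single-gene probe sets for 18193 genes in all. No probe set was annotated to Tnfrsf26 alone, so Tnfrsf26 was not analysed here. By RefSeq, Tnfrsf1b, Tnfrsf4, Tnfrsf9, Tnfrsf14 and Tnfrsf18 lie on chromosome 4, Cd27 and Tnfrsf1a on chromosome 6, Fas on 19 and Tnfrsf10b on 14.

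The study asked what distinguishes T cells lacking the type II receptor for transforming growth factor β (TGF-β) that display the natural killer (NK) cell marker NK1.1. CD8+ T cells with and without NK1.1 came from 15- to 17-day-old mice with both Tgfbr2 alleles floxed and the CD4-Cre transgene (KO), which deletes the receptor in T cells. Control cells came from littermates that also carried CD4-Cre, with 1 floxed and 1 wild-type Tgfbr2 allele. The array title calls the control cells NK1.1−, while part of the study's design text describes total CD8+ cells. Each group was measured on 1 Affymetrix mouse array. There was therefore no spread between mice, no test was possible, and every difference is between single arrays. No source used here says whether animals were pooled.

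Receptors of this family sit in the cell membrane and bind ligands of the TNF family, which are mostly presented by other cells as trimers. One branch, with CD27, OX40, 4-1BB, GITR, HVEM and TNF receptor 2, recruits TRAF adaptors and costimulates T cells through NF-κB. Another, with Fas, TNF receptor 1 and the TRAIL receptor, carries a death domain that can recruit FADD or TRADD and caspase-8. In CD8+ T cells CD27 is present from the naive state, whereas OX40 and 4-1BB are induced by activation.

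Values are probe set intensities on a linear scale. The detection level was 9.66, the 95th percentile of 145 probe sets for genes such as olfactory receptors that T cells are not known to use. Values below 9.66 were raised to it before a log2 difference was taken, so such differences are bounds, and a gene was called higher or lower at 2-fold, a log2 difference of 1. Of the 9 receptor genes, 7 were measured on all 3 arrays, Tnfrsf14 on 2 and Tnfrsf10b on none.

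The arrays themselves differed. Median intensities were 8.99 in NK1.1+ KO cells, 8.24 in NK1.1− KO cells and 8.18 in control cells. The 3′ to 5′ ratio of Actb control probe sets, a sign of RNA integrity, was 81.9, 12.3 and 6.02 in that order, and that of Gapdh 10.8, 26.7 and 17.8. The brightest Tgfbr2 probe set read 1808, 1271 and 2634, and since no source used here gives the deleted part, this may check nothing. The probe set shared by Klrb1b and Klrb1c, the gene of NK1.1, read 1618, 52.7 and 7.09. The brightest Cd8a probe set read 524, 1027 and 1786. The 5 Cd8a probe sets disagreed, with log2 differences of -3.59 to 0.028 between NK1.1+ KO and control cells. Between the KO subsets they ran from -2.14 to 0.24. Across all genes the median log2 difference was -0.17 between NK1.1+ KO and control cells, 0.011 between NK1.1− KO and control cells and -0.24 between the KO subsets. Probe sets of the same gene differed among themselves with a pooled SD of 0.89, 0.46 and 0.80 on the log2 scale in these comparisons, a spread within arrays and not between samples.

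The receptors separated into 3 patterns across the arrays. Of the 6 measured TRAF-binding receptor genes without a death domain, Cd27, Tnfrsf4, Tnfrsf9, Tnfrsf18 and Tnfrsf14 were lowest in NK1.1+ KO cells and at least 2-fold below both other groups there. Tnfrsf1a, the broadly expressed TNF receptor, was highest in NK1.1+ KO cells. Tnfrsf1b, which also lacks a death domain, and the death receptor gene Fas stayed within 2-fold on all 3 arrays.

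**Figure D1:**
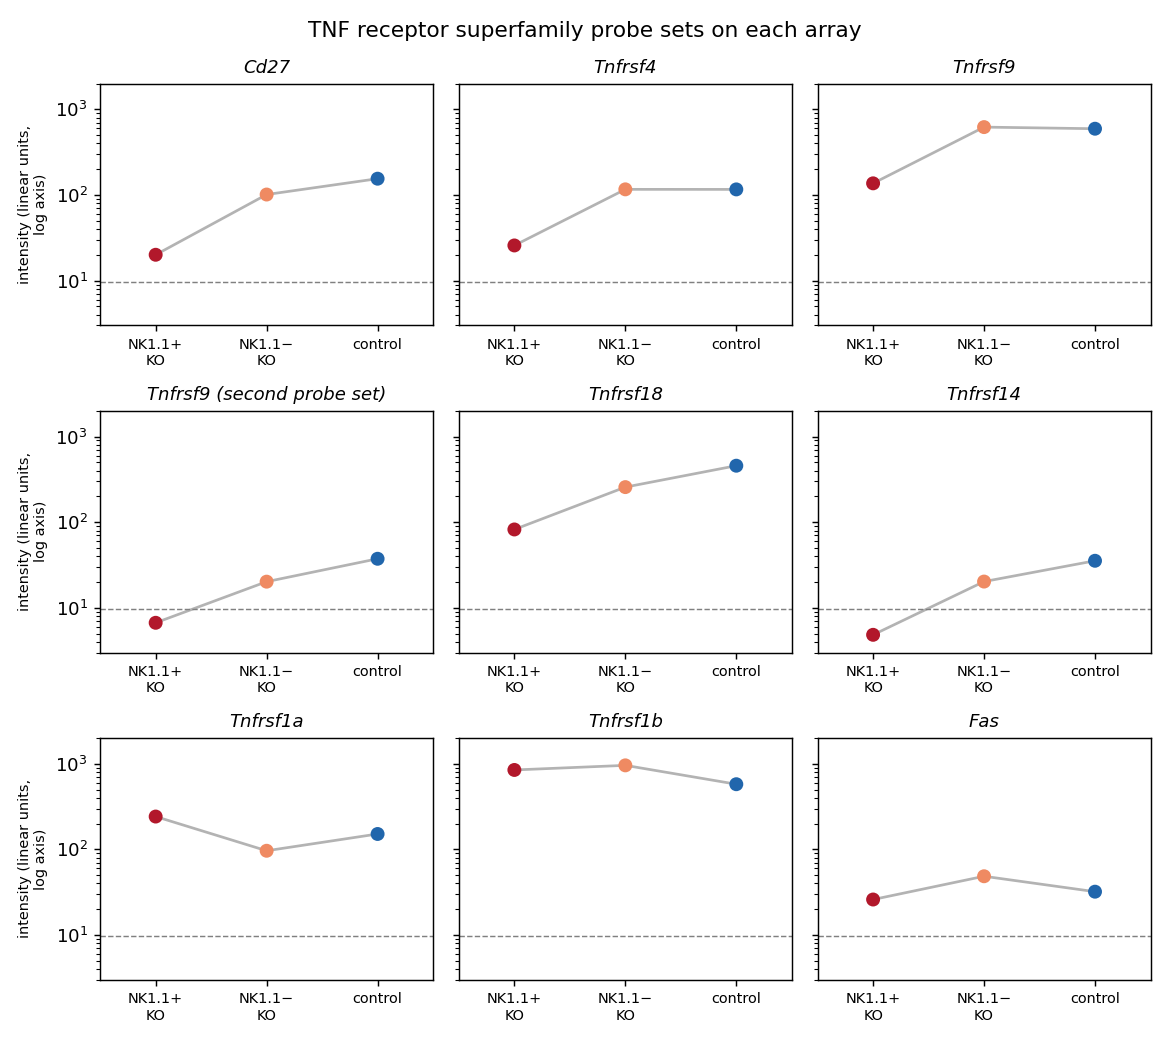
Intensity (linear units, log axis) of the 9 receptor probe sets measured on at least 1 array, with 1 point for each array: NK1.1+ KO, NK1.1− KO and control. The dashed line is the detection level of 9.66. The first 6 panels, from Cd27 to Tnfrsf14, have their lowest point in NK1.1+ KO cells, while Tnfrsf1a has its highest there.

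Among the 8 measured receptor genes, 5 were called lower and 0 higher in the NK1.1+ KO subset relative to control. Over all genes, 22.6% of 10624 were called lower and 9.73% higher in that comparison. The median log2 difference of the 8 was -2.00, beside -0.17 for all genes. Between the KO subsets, 5 of the 8 were called lower and 1 higher in NK1.1+ cells, against 20.9% and 6.43% of 10618 genes, with a median of -1.36. Counted by probe set, 6 of 9 were lower and 0 higher in the NK1.1+ KO subset relative to control (22.5% and 8.72% of all probe sets), and 6 were lower and 1 higher than in NK1.1− KO cells (20.6% and 6.3%). The same 5 genes were below both other arrays, which held for 14.8% of 10431 genes measured in both comparisons. These comparisons share the NK1.1+ KO array, so its values enter both. On that array 6 of the 8 receptor genes had their lowest value, as did 49.3% of the 10811 genes measured anywhere.

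CD27, the receptor for CD70, supports the survival and memory formation of CD8+ T cells and is lost in late effector cells. Cd27 read 20.1 in NK1.1+ KO cells, 101 in NK1.1− KO cells and 155 in control cells. The NK1.1+ KO value was 7.73-fold below control (log2 difference -2.95) and 5.05-fold below NK1.1− KO cells (-2.34). Of the 10624 genes measured, 1.29% had a lower difference from control than Cd27. Among the receptors examined Cd27 had the lowest such difference, but with an offset of 32 Tnfrsf18 (-2.10) and Tnfrsf9 (-1.89) lay below Cd27 (-1.85), and at the stricter level described for Tnfrsf14 they lay at -2.47 and -2.12 against -1.52 for Cd27. The NK1.1− KO value was 1.53-fold below control, short of 2-fold.

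OX40, encoded by Tnfrsf4, prolongs the response of activated T cells and is also carried by regulatory T cells. Tnfrsf4 read 25.8 in NK1.1+ KO cells, 117 in NK1.1− KO cells and 116 in control cells. Both other arrays lay at the same level, and NK1.1+ KO cells were 4.51-fold below control and 4.52-fold below NK1.1− KO cells.

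4-1BB (CD137), encoded by Tnfrsf9, is induced on CD8+ T cells by antigen and drives their proliferation and survival. Its brightest probe set read 137 in NK1.1+ KO cells, 621 in NK1.1− KO cells and 595 in control cells. NK1.1+ KO cells were thus 4.34-fold below control and 4.54-fold below NK1.1− KO cells, while the NK1.1− KO and control values were 1.04-fold apart. The second Tnfrsf9 probe set read 6.69, 20.2 and 37.4 in the same order of groups. It was likewise lowest in NK1.1+ KO cells, where it was below the detection level, but it placed NK1.1− KO cells 1.85-fold below control. The third Tnfrsf9 probe set was below the level on every array.

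GITR, encoded by Tnfrsf18, costimulates effector T cells and is abundant on regulatory T cells. Tnfrsf18 read 82.3 in NK1.1+ KO cells, 257 in NK1.1− KO cells and 457 in control cells, a stepwise order of the 3 groups. NK1.1+ KO cells were 5.55-fold below control and 3.12-fold below NK1.1− KO cells, and NK1.1− KO cells 1.78-fold below control. Tnfrsf18 was read by 1 probe set, of a kind that can match several transcripts of a gene. Tnfrsf4 and Tnfrsf18 are neighbours among the protein-coding genes of chromosome 4 in RefSeq.

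HVEM, encoded by Tnfrsf14, binds LIGHT as a costimulatory receptor and also engages the inhibitory receptors BTLA and CD160. Tnfrsf14 read 4.84 in NK1.1+ KO cells, 20.3 in NK1.1− KO cells and 35.5 in control cells. It was below the detection level in NK1.1+ KO cells only, and so at least 3.67-fold below control and at least 2.10-fold below NK1.1− KO cells there. NK1.1− KO cells were 1.75-fold below control. With a stricter detection level of 54.0, the 75th percentile over all probe sets, Tnfrsf14 and Fas were measured on no array, and Cd27 differed by -0.91 between the KO subsets, short of 2-fold.

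TNF receptor 1, encoded by Tnfrsf1a, is the widely expressed death domain receptor for soluble TNF. Tnfrsf1a read 242 in NK1.1+ KO cells, 96.3 in NK1.1− KO cells and 151 in control cells, so the KO subsets lay on opposite sides of control. The value in NK1.1+ KO cells was 2.51-fold that in NK1.1− KO cells (log2 difference 1.33) and 1.60-fold that in control cells (0.68). Centring each array on its measured genes took the second difference past 2-fold, at 1.12. In NK1.1− KO cells it was 1.57-fold below control.

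TNF receptor 2, encoded by Tnfrsf1b, lacks a death domain, binds membrane TNF best and is found mainly on lymphoid and myeloid cells. Its bright probe set read 846 in NK1.1+ KO cells, 958 in NK1.1− KO cells and 577 in control cells. Both KO subsets were above control, by 1.47-fold and 1.66-fold, neither reaching 2-fold, and they differed from each other by 1.13-fold, a difference whose sign turned under centring (0.31). The other Tnfrsf1b probe set was below the level on all arrays, at 8.34, 6.08 and 6.40.

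Fas, the death receptor that removes activated lymphocytes after binding Fas ligand, read 26.0 in NK1.1+ KO cells, 48.5 in NK1.1− KO cells and 32.1 in control cells. Fas was highest in NK1.1− KO cells, 1.51-fold above control, and NK1.1+ KO cells were 1.87-fold below NK1.1− KO cells. The log2 difference of -0.30 between NK1.1+ KO and control cells turned to 0.14 under centring. Tnfrsf10b, the mouse death receptor for TRAIL, was below the detection level in every group, with values of 5.19 to 5.68 for its brighter probe set.

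In NK1.1− KO against control cells, 0 of the 8 measured receptor genes were called in either direction, where 7.98% of 10057 genes were called higher and 5.56% lower. By probe set the count was 0 of 9, where 6.91% were called higher and 5.92% lower. The log2 differences ran from -0.83 for Tnfrsf18 to 0.73 for Tnfrsf1b, with a median of -0.31. Cd27 (-0.61), Tnfrsf1a (-0.65), Tnfrsf14 (-0.81) and Tnfrsf18 (-0.83) lay below control, Fas (0.60) and Tnfrsf1b above it, and Tnfrsf4 (0.0021) and Tnfrsf9 (0.063) at it. This comparison and that of NK1.1+ KO cells share the control array.

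**Figure D2:**
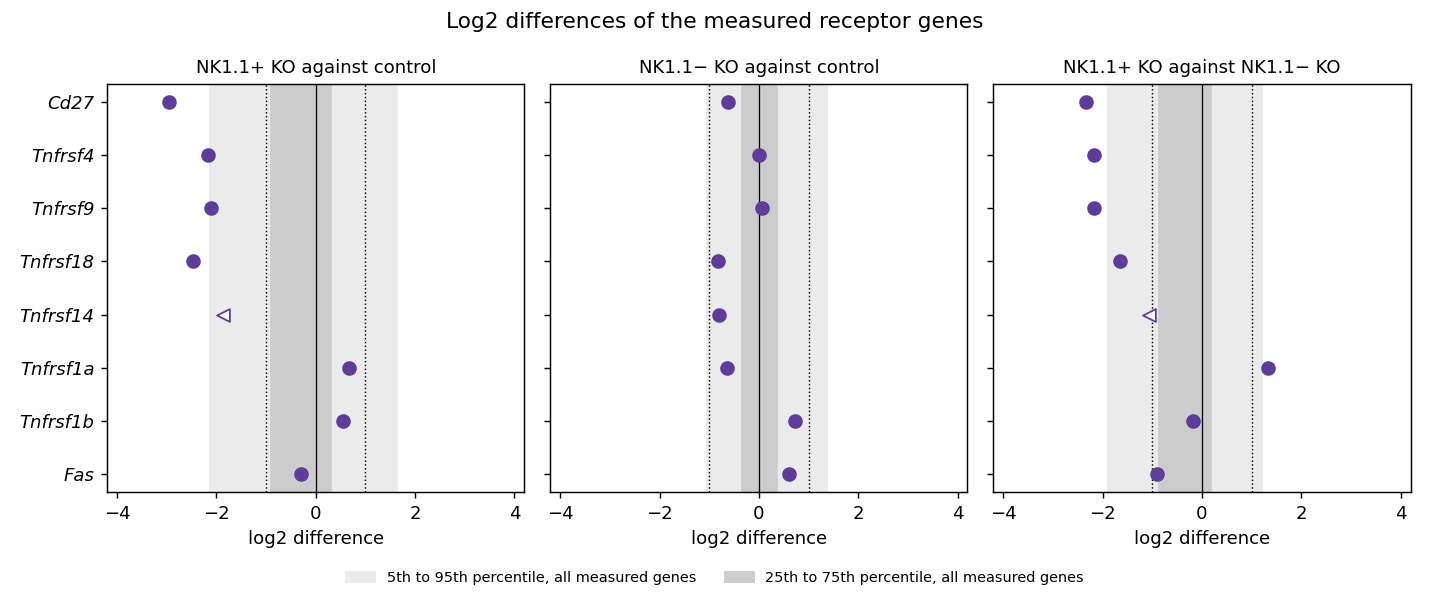
Log2 difference of the 8 measured receptor genes in NK1.1+ KO against control, NK1.1− KO against control, and NK1.1+ KO against NK1.1− KO cells, with dotted lines at 2-fold and grey bands for all measured genes. Open triangles are bounds. Cd27 (-2.95), Tnfrsf18, Tnfrsf4, Tnfrsf9 and Tnfrsf14 lie left of -1 in both comparisons of NK1.1+ KO cells, and 0 genes pass 2-fold in the middle panel.

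The sequence upstream of the RefSeq start was set beside these patterns for 8 receptor genes, which had 9 annotated starts, and 250 bases before each start were searched on both strands. Shown are Cd27, Tnfrsf9 (the downstream of its 2 starts) and Tnfrsf18, 3 of the receptors that were low in NK1.1+ KO cells. Tnfrsf1a is shown as well. It was highest in NK1.1+ KO cells but called higher only against NK1.1− KO cells, not against control. Capitals mark matches to the letters TTCNNNGAA, the core bound by STAT5, or to the κB consensus bound by NF-κB. All are read 5′ to 3′ on the gene's strand from RefSeq, build GRCm38.p6. They are chr6:125237028-125237277 (minus strand) for Cd27, chr4:150927749-150927998 (plus) for Tnfrsf9, chr4:156026072-156026321 (plus) for Tnfrsf18 and chr6:125349473-125349722 (plus) for Tnfrsf1a.
Cd27: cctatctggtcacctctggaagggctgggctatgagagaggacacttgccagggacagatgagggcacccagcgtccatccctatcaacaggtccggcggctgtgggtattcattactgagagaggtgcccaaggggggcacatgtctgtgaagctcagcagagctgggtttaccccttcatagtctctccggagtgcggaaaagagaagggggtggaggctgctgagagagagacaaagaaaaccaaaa
Tnfrsf9: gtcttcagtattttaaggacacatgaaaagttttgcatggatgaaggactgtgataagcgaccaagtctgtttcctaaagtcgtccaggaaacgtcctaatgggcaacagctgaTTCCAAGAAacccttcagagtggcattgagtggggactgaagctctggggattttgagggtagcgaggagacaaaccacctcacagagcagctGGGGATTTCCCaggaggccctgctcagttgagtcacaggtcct
Tnfrsf18: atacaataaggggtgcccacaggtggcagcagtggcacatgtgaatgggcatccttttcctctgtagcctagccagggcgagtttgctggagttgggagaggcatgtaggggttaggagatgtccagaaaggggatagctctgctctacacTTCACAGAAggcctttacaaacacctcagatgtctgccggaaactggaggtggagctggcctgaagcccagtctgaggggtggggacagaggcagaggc
Tnfrsf1a: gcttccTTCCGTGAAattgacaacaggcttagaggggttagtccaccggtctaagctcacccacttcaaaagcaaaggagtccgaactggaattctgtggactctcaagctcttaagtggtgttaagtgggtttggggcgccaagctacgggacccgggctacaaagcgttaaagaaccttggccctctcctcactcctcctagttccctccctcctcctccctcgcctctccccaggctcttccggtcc

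The STAT5 letters were found before 5 of the 9 receptor starts, those of Fas, Tnfrsf18, Tnfrsf1a, Tnfrsf1b and the downstream start of Tnfrsf9, and in 7.02% of 32851 such windows of the genome. They thus stood before receptors that were low in NK1.1+ KO cells, before Tnfrsf1a, which was highest there, and before Tnfrsf1b and Fas. The κB consensus was found only before the downstream Tnfrsf9 start, as a pair of overlapping matches, and in 7.25% of all windows. The GC box GGGCGG was found before Fas, Tnfrsf1b and the upstream start of Tnfrsf9, and in 32.7% of all windows. The RUNX letters TGTGGT (14.05% of windows) and the T-box letters AGGTGTGA (1.12%) were found before none of the 9 starts. No motif match overlapped one of another kind. A match describes the letters in these windows and nothing more.

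Other receptors of the family gave few measured genes, 8 of 18 on at least 1 array. In NK1.1+ KO against control cells 1 of 8 was called higher and 1 lower, beside 9.73% and 22.6% of all genes. In NK1.1− KO against control 1 of 6 was higher and 1 lower, beside 7.98% and 5.56%. Between the KO subsets 1 of 7 was higher and 2 lower, beside 6.43% and 20.9%. The median log2 difference of these other receptors from control in NK1.1+ KO cells was -0.27. Tnfrsf13b, which encodes TACI, a receptor for BAFF and APRIL known from B cells, read 33.9 in NK1.1+ KO cells, 82.7 in NK1.1− KO cells and 243 in control cells. Relative to control it was lower by 7.19-fold in the NK1.1+ and by 2.94-fold in the NK1.1− KO subset. Tnfrsf13c, encoding the BAFF receptor, read 47.9, 167 and 59.6 in that order and was highest in NK1.1− KO cells, 2.80-fold above control. Eda2r, an ectodysplasin receptor gene, read 25.4 in NK1.1+ KO cells and was below the level elsewhere, at least 2.63-fold higher.

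Ligands and counter-receptors came next in the pathway. Of 11 measured ligand and counter-receptor genes, 2 were called higher and 3 lower in the NK1.1+ KO subset relative to control, beside the 9.73% and 22.6% of all genes. Of 12 in NK1.1− KO cells 4 were higher and 1 lower, beside 7.98% and 5.56% of all genes. Fasl, encoding the Fas ligand with which cytotoxic cells kill, read 1285 in NK1.1+ KO cells, 815 in NK1.1− KO cells and 75.2 in control cells. It was 17.1-fold and 10.8-fold above control, whereas its receptor gene Fas was within 2-fold. The other Fasl probe set read 7.97, 20.3 and 8.45, called only in NK1.1− KO cells.

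Counter-receptors of HVEM diverged. Cd160, an HVEM-binding receptor of cytotoxic cells, read 383 in NK1.1+ KO cells, 446 in NK1.1− KO cells and 142 in control cells by its brightest probe set, 2.70-fold and 3.15-fold above control. The other 3 Cd160 probe sets gave log2 differences of -0.047 to 0.66 and 0.57 to 0.99. Btla, an inhibitory HVEM-binding receptor named here after its values were seen, read 947, 2244 and 2713 and was 2.87-fold below control in NK1.1+ KO cells. Ltb, encoding lymphotoxin β, read 341, 529 and 1407 and was below control in both KO subsets, by 4.13-fold and 2.66-fold. The brightest Tnfsf13b probe set, for BAFF, read 11.9, 41.2 and 5.61 and was at least 4.27-fold above control in NK1.1− KO cells. Another read 13.6, 7.60 and 11.1 and so placed NK1.1− KO cells lowest, and the third was below the level on all arrays. Tnfsf9, the 4-1BB ligand gene, also named after its values were seen, was measured only in NK1.1− KO cells, at 25.2. Cd70 and Tnfsf4, encoding the ligands of CD27 and OX40, were below the level on all arrays.

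Of 25 measured adaptor and death signalling genes, 7 were called lower and 0 higher in the NK1.1+ KO subset relative to control, with a median of -0.51. That share lay near the 22.6% of all genes. Between the KO subsets 9 of 25 were called lower and 0 higher in NK1.1+ cells, beside 20.9% and 6.43% of all genes. The median there was -0.54, beside -0.24 for all genes. Ripk3, the kinase of necroptosis, read 51.3 in NK1.1+ KO cells, 326 in NK1.1− KO cells and 324 in control cells, 6.32-fold below control. Traf5, an adaptor of CD27 and OX40, read 73.4, 215 and 250 and was 3.41-fold below control, with -0.46 on the log2 scale by its other probe set. Otulin, a deubiquitinase of linear chains in the TNF receptor complex, read 83.5, 266 and 232.

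Casp8, the initiator caspase recruited by Fas through FADD, was low in both KO subsets. It read 180 in NK1.1+ KO cells, 264 in NK1.1− KO cells and 658 in control cells. The deficit relative to control was 3.65-fold in the NK1.1+ and 2.49-fold in the NK1.1− KO subset. In NK1.1− KO cells, 1 of 26 adaptor and death genes was called lower, Casp8, and 1 higher, Siva1, beside 5.56% and 7.98% of all genes. Siva1 (165 against 65.2), whose product binds CD27, was named here after its values were seen. The 4 Siva1 probe sets gave log2 differences of 0.10 to 1.34 there. Traf1, an adaptor induced by NF-κB, read 389, 397 and 218 by its brighter probe set and 14.3, 189 and 122 by the other. The Traf1 probe sets disagreed in NK1.1+ KO cells, with log2 differences from control of 0.84 and -3.09.

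Of 21 measured NF-κB pathway genes, 2 were called higher and 4 lower in the NK1.1+ KO subset relative to control (median -0.21), and 0 and 1 in NK1.1− KO cells (median 0.020). The shares in NK1.1+ KO cells lay near the 9.73% higher and 22.6% lower of all genes. In NK1.1− KO cells 7.98% of all genes were called higher and 5.56% lower. Tnfaip3, encoding the feedback inhibitor A20, read 993 in NK1.1+ KO cells, 978 in NK1.1− KO cells and 721 in control cells, 1.38-fold and 1.36-fold above control. Ikbkb, the kinase that activates the canonical pathway, read 953, 1541 and 2343 by its brightest probe set and was 2.46-fold below control in NK1.1+ KO cells. Its other measured probe sets gave log2 differences from control of -2.22 (a bound) and -2.17 in NK1.1+ KO cells. In NK1.1− KO cells they gave -2.02 and -0.49. Nfkb2, which gives the p52 subunit of the non-canonical pathway, read 13.7, 24.0 and 35.9. It was 2.62-fold below control in NK1.1+ KO cells, with -0.48 by its other probe set. Relb, its partner, read 17.2, 38.5 and 30.3, and Tab1, a cofactor of the kinase TAK1, 8.54, 19.3 and 21.4.

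**Figure D3:**
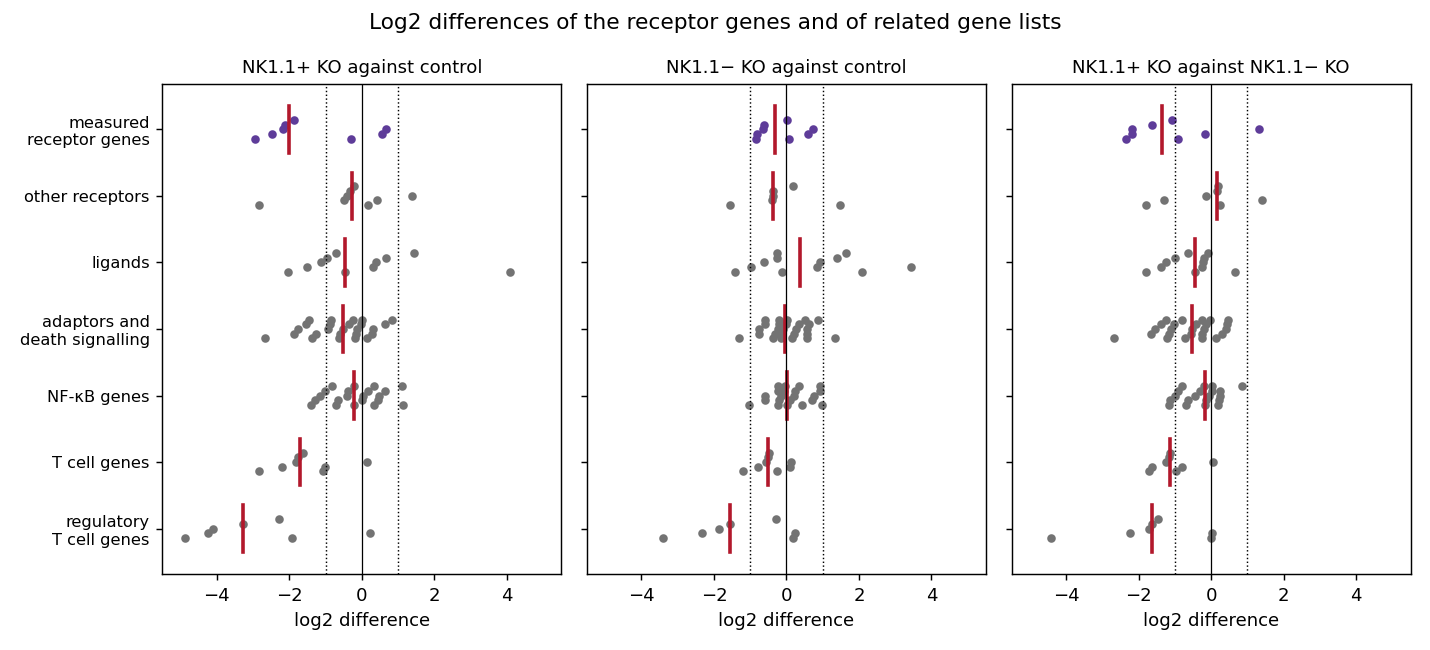
Log2 difference of each measured gene in the receptor genes examined and in 6 related lists, in the 3 comparisons, with a red bar at each median and dotted lines at 2-fold. In NK1.1+ KO against control cells the receptor median is -2.00, the T cell gene median -1.70 and the NF-κB gene median -0.21.

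Markers of cell types also differed on the NK1.1+ KO array, some lists being lower and others higher than control. T cell genes summed to 4277 in NK1.1+ KO cells, 9093 in NK1.1− KO cells and 13431.5 in control cells. They were called lower than control for 7 of 8 measured in NK1.1+ KO cells (median -1.70) and for 1 of 8 in NK1.1− KO cells. Over all genes 22.6% and 5.56% were called lower in these comparisons. Cd3e was the exception, at 776, 750 and 701, while Cd3g read 1185, 2805 and 4146. Cd4, also counted in this list, read 169, 378 and 344 by its brightest probe set, although the cells were sorted as CD8+. The source of this Cd4 signal was not tested. Regulatory T cell genes, some of which accompany Tnfrsf4 and Tnfrsf18, were called lower for 6 of 7 (median -3.27) and for 4 of 7, beside the same shares. Ctla4 read 63.2, 1344 and 1189 and Foxp3 10.1, 33.3 and 97.1 in the same order. Ikzf2, the brightest gene of this list, was the exception in NK1.1+ KO cells, at 2792, 2790 and 2391 by its brightest probe set. Its measured probe sets disagreed there, with log2 differences from control of -1.15 to 0.22. The regulatory T cell genes summed to 2939, 4358 and 4477, but without Ikzf2 to 146, 1568 and 2086. In such bulk samples, fewer cells of a type and less RNA per cell cannot be told apart.

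Monocyte, macrophage and granulocyte genes, which accompany TNF receptors in myeloid cells, were all above control in NK1.1+ KO cells, 7 of 7 measured being called. Over all genes 9.73% were called higher in that comparison. The myeloid genes summed to 8781 in NK1.1+ KO cells, 296 in NK1.1− KO cells and 230 in control cells, led by Csf1r at 7666, 54.5 and 30.5. The 3 Csf1r probe sets disagreed in size, with log2 differences from control of 1.88 to 7.97. Cd14, Itgam, Mpo and C1qa were below the level on all arrays. Without Csf1r the sums were 1115, 242 and 199. NK cell genes summed to 13907, 7575 and 4328, with Ncr1 below the level throughout, but to 2033, 2173 and 640 without Klrd1. Of 5 measured, 4 were called higher and 0 lower in NK1.1+ KO cells relative to control, beside 9.73% and 22.6% of all genes. Relative to NK1.1− KO cells 4 of 5 were higher and 1, Eomes, lower, beside 6.43% and 20.9%. Tyrobp read 1183, 52.6 and 21.6, and Eomes 734, 2085 and 593 by its brightest probe set. The other Eomes probe set gave a log2 difference from control of -1.01 in NK1.1+ KO cells. B cell genes summed to 2631, 503 and 398, of which Jchain, a plasma cell gene, gave 2282, 16.0 and 15.9. Without Jchain the B cell sums were 350, 487 and 382. With Jchain included, 2 of 6 measured B cell genes were called higher and 1 lower in NK1.1+ KO cells relative to control. The 2 were Jchain and Cd22, and the 1 was Cd79b. Over all genes 9.73% were called higher and 22.6% lower. Cd79a and Pax5 were below the level on all arrays. Dendritic cell genes summed to 2020, 498 and 618, and without H2-Aa to 503, 209 and 293. Of 5 measured, 3 were called higher and 0 lower in NK1.1+ KO cells relative to control, beside 9.73% and 22.6% of all genes. The 3 were H2-Aa, H2-Eb1 and Cd74, and the log2 differences of H2-Ab1 (0.19) and Zbtb46 (0.30) were short of 2-fold. Flt3, Xcr1 and Siglech were below the level on all arrays, and Zbtb46 read 13.6, 11.7 and 11.1. These sums without the brightest gene of a list were chosen after seeing the data. Naive T cell genes summed to 6432, 8296 and 23483 and proliferation genes to 1271, 10669 and 2359. The 3 erythroid genes on the array were below the level throughout. The part of these cell types, of proliferation and of RNA quality in the receptor differences was not tested.

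**Figure D4:**
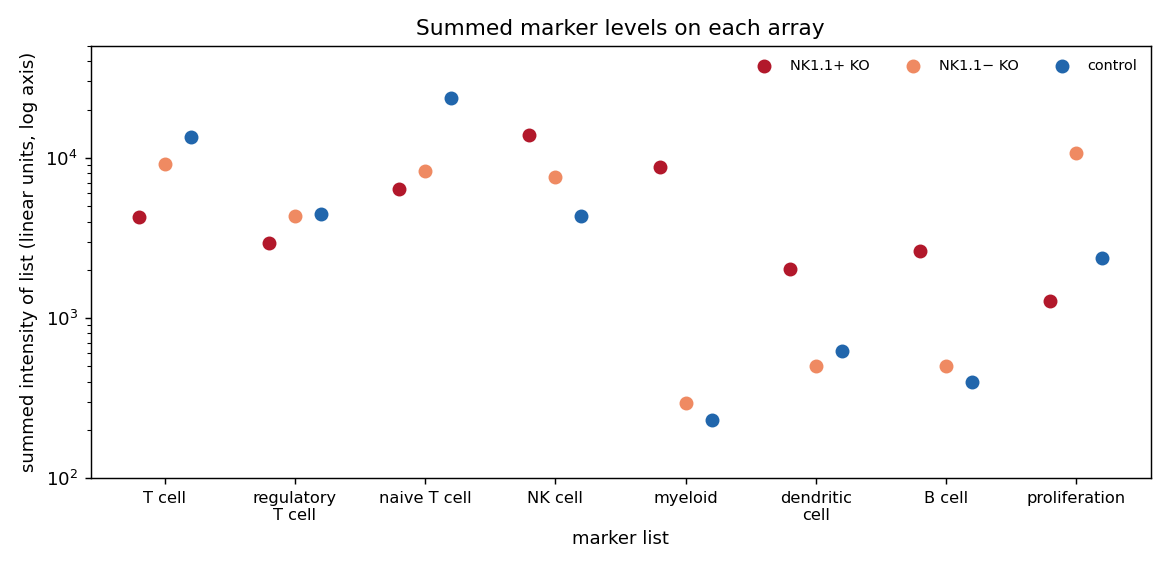
Summed intensity (linear units, log axis) of 8 marker lists on the NK1.1+ KO, NK1.1− KO and control arrays. The T cell sum is lowest (4277) and the myeloid sum highest (8781) in NK1.1+ KO cells, and the proliferation sum is highest (10669) in NK1.1− KO cells.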

How the data were processed

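The study used 3 arrays, 1 for each group of sorted CD8+ T cells. The deposited intensity values, 1 per probe set, were made by the authors with GCRMA 1.1.3, per the submitters' processing notes. No source used here gives its settings. The values are linear, from 2.60 to 55468 outside controls, and log2 was taken. GEO's platform annotation names 1 gene for 34945 probe sets, several for 932 and none for 9160. A gene was represented by its single-gene probe set with the highest mean log2 value. No build is given for the probe sets, so gene coordinates are left out. The detection level, the 2-fold call and pooled probe set SD were computed in Python 3.11.15 with pandas 2.3.3. With 1 array per group there is no p-value, and precision is limited by the number of arrays. Named were all receptors examined, up to 4 called genes per pathway list by largest difference, and Fasl, Traf1 and Tnfaip3. The receptors, lists and motifs were chosen with earlier results of these data known. Alternatives changed the level, offset, probe set summary, suffixed probe sets, normalization and threshold.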

Additional observations from a re-analysis of the deposited data

Results flagged for a closer look

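For 4 receptor genes measured on all 3 arrays the KO subsets lay on opposite sides of the control array. The log2 differences from control in NK1.1+ KO and NK1.1− KO cells were -0.30 and 0.60 for Fas, 0.68 and -0.65 for Tnfrsf1a, -2.17 and 0.00 (just above 0) for Tnfrsf4, and -2.12 and 0.06 for Tnfrsf9. With 1 array per group the difference between the subsets was not tested, and both differences of a gene use the same control array. Of these values, those of Tnfrsf4 and Tnfrsf9 in NK1.1+ KO cells alone passed 2-fold. Under other settings the small differences of Tnfrsf4 and Tnfrsf9 in NK1.1− KO cells also fell below 0, to -0.043 and -0.27 at the lowest, and that of Fas in NK1.1+ KO cells turned to 0.14 under centring.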

How the results depend on the processing

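No paired analysis was possible because each group has 1 array, and no array could be left out. The number of receptor genes called stayed within 1.5 times of the reported one under all 8 alternatives: 4 to 6 in NK1.1+ KO against control cells (reported 5), 0 in NK1.1− KO against control and 4 to 6 between the KO subsets (reported 6). The number of receptor probe sets called between the KO subsets, 7, moved to 4 with the level set at the 75th percentile over all probe sets and to 4 at a threshold of 1.5 on the log2 scale. Of 159 single differences recomputed, 0 called ones changed sign and 11 moved by more than the probe set SD. Cd27 lost its call between the KO subsets under that level, at -0.91. Tnfrsf14 lost its call with an offset of 32, at -0.87 against control and -0.50 against NK1.1− KO cells, and under centring against NK1.1− KO cells. At the threshold of 1.5, Tnfrsf14 (-1.07) and Tnfrsf1a (1.33) lost their calls between the KO subsets. Centring on the median of measured genes moved the median of all genes in NK1.1+ KO against control from -0.17 to 0.19, and Cd27, Tnfrsf4, Tnfrsf9, Tnfrsf18 and Tnfrsf14 stayed below both other arrays. Tnfrsf18 has suffixed probe sets only. Probe sets dimmer than the level give bounds only.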
